A study of Arabidopsis thaliana with 72 samples.

Results

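The flower transcriptome of *Arabidopsis thaliana* was set against 8 other tissues, first by RNA level and then by pseudouridine (Ψ) in poly(A)-tailed RNA. All genes of the expression table and all positions of the site list were considered. Of 32833 genes in the table, 22381 were tested, and of 8512 listed positions, 2505 were called as Ψ sites in flower. The plants were wild type Col-0, and the other tissues were seedling at 7 days, silique, cauline leaf, stem, rosetta leaf (the spelling of the labels) at 30 days, seed, shoot at 14 days and root at 14 days. The ages of the flowers, siliques, cauline leaves, stems and seeds were not given in the sources used here. Ψ was mapped by BID-seq, in which bisulfite adds to Ψ and reverse transcription then skips the modified base, so that Ψ is read as a deletion. The series holds 72 libraries, of which 56 were bisulfite treated and 16 were untreated inputs, and flower had 7 treated and 2 input libraries. RNA levels were given as TPM, a measure scaled for transcript length and for the total of the library, in 16 columns, of which 2 were from flower, 1 each from rosetta leaf and seed, and 2 from each other tissue.

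A flower bears sepals, petals, stamens and carpels, whose identity is set by combinations of MADS-box transcription factors. Inside the anther the tapetum, a nurse tissue, feeds the developing pollen and makes the outer pollen wall and its coat, and the mature pollen grain then grows a tube that carries the sperm cells to the ovule. Open flowers also secrete nectar and release volatile terpenes. Ψ is an isomer of uridine made by Ψ synthases, some of which are guided by small RNAs, and it occurs in rRNA, tRNA, small nuclear RNA and mRNA.

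A flower sample is a mixture of all these organs. In such bulk RNA, fewer cells of a type and less RNA per cell cannot be told apart. The columns of a tissue agreed closely: the SD of the log2 difference between the flower columns was 0.145, against 0.156 to 0.243 between the columns of the other tissues that had 2. The labels do not say whether the columns came from separate plants, so p-values measure the spread between these columns, which may be technical. Read depth is unknown because TPM keep no count. The label was checked against lists of marker genes, which were chosen with earlier results of these data known, so the check is not independent of the data. Genes of floral organ identity summed to 1300 TPM in flower, against 1001 TPM in silique and 5.19 to 229 TPM in the other tissues, and genes of mature pollen to 5245 TPM in flower, against 181 to 573 TPM elsewhere. Seed storage genes summed to 42.0 TPM in flower, against 23022 TPM in seed and 10235 TPM in silique. Both flower columns held little of them, but not equally: cruciferin CRA1 was at 16.6 and 6.54 TPM in flower, against 5226 TPM in seed.

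In all, 1219 genes were higher in flower than in each of the other 8 tissues, which is 5.45% of the genes tested, and 106 were lower than in each, which is 0.474%. Levels were compared as log2(TPM + 1) with limma, and a gene was called when the largest of its 8 p-values, adjusted over all genes by the Benjamini-Hochberg method, was under 0.05. Differences are given on that scale against the nearest other tissue with their standard error (SE), and they understate the change of low genes. At an unadjusted p under 0.05 the counts were 1617 higher and 264 lower. The higher genes differed more: 747 of them stood at least 2-fold above the nearest tissue, 510 at least 4-fold, 93 at least 16-fold and 33 at least 32-fold, whereas 22 of the lower genes were at least 2-fold below it and 2 at least 4-fold. The count of lower genes was 436 without the seed column and 195 without the rosetta leaf column. Each is the only column of its tissue, so that tissue dropped out of the comparison and more genes could pass. The count of higher genes rose as well, to 1402 and 1294. The count of lower genes was also 468 after quantile normalization and 418 with median-ratio factors. The 1219 higher genes held 11.2% of all TPM in flower, against 1.08% in seed to 2.96% in silique. Among them were 1169 of 21155 tested protein-coding genes, 16 of 269 small nucleolar RNAs (snoRNAs) and 15 of 365 long non-coding RNAs. Each of these shares was near the 5.45% over all genes. The 106 lower genes were protein-coding without exception, as were most genes tested.

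Silique was the tissue closest to flower from below for 527 of the 1219 higher genes (43.2%), followed by root with 192 (15.8%) and shoot with 173 (14.2%). It was also the closest from above for 39 of the 106 lower genes (36.8%). Over all tested genes, flower ranked most like shoot, with a Spearman correlation of 0.806, then silique (0.781) and stem (0.776), and least like seed (0.551). These coefficients describe the ranking of genes, which are not independent replicates.

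**Figure D1:**
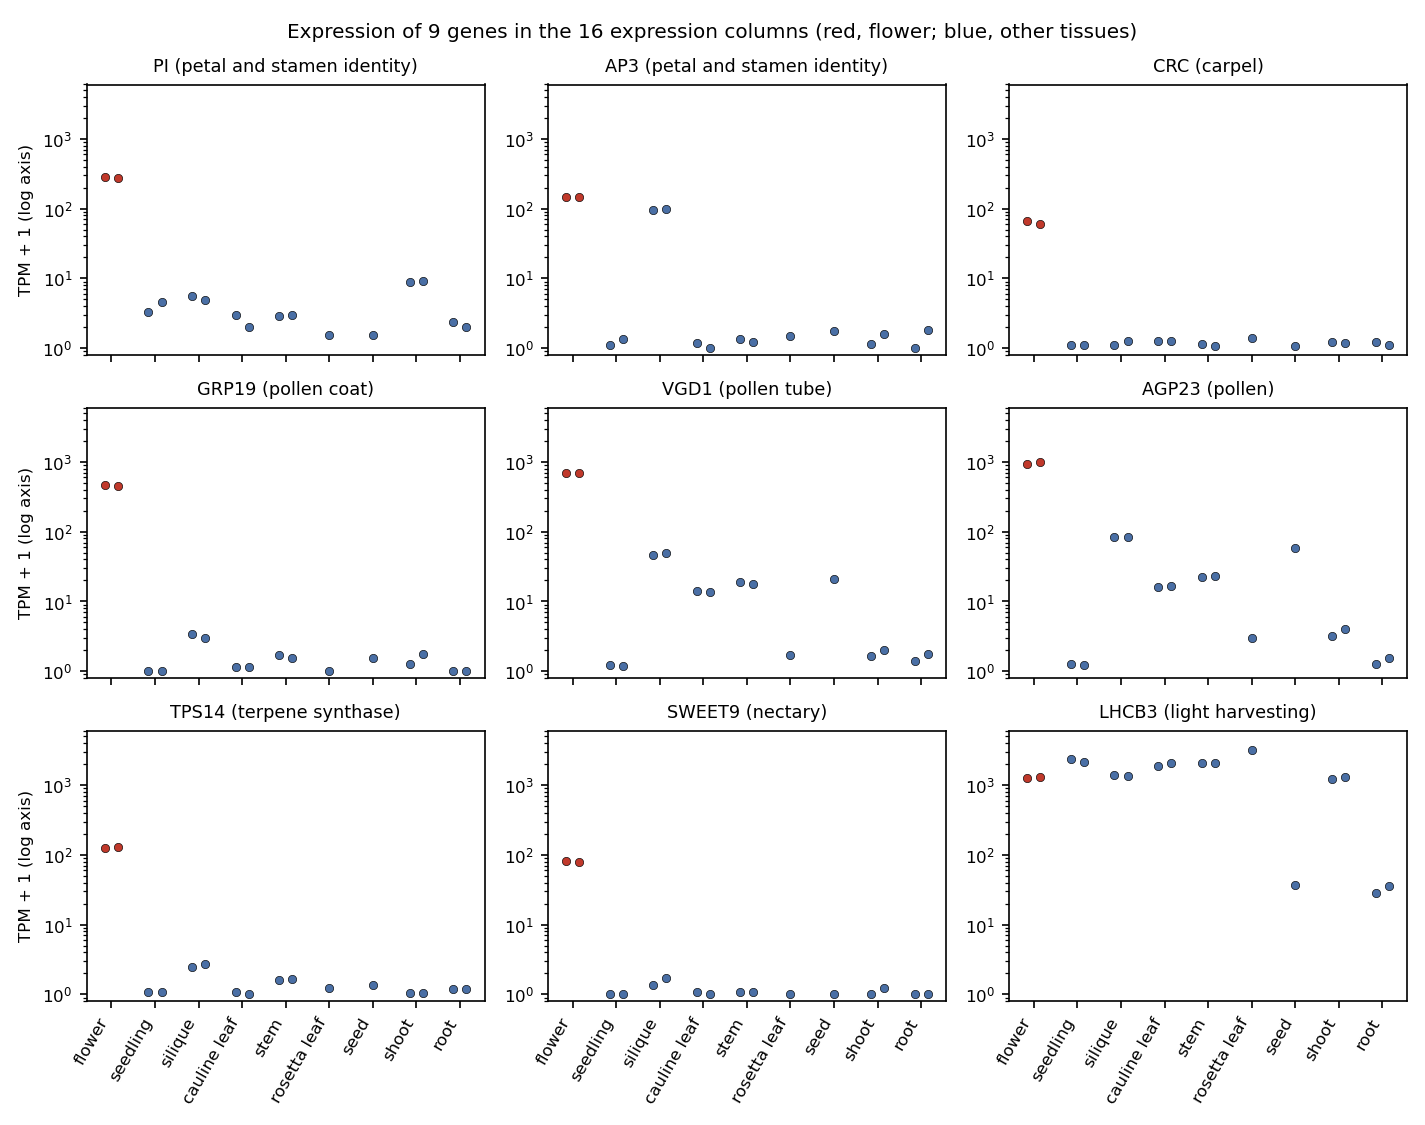
Level of 9 genes, 1 per panel, in each of the 16 expression columns on a log axis of TPM + 1, with flower in red at the left and the other tissues in blue. PI, CRC, GRP19, TPS14 and SWEET9 stand far above every other column, AP3 is close to its silique columns, VGD1 and AGP23 keep a low level in silique, stem, cauline leaf and seed, and LHCB3 lies within the range of the green tissues.

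The genes of floral organ identity were highest in flower for some members and shared with silique, the tissue that follows the flower, for others. Of 17 listed genes, 15 were tested and 6 passed as higher than in each other tissue, and none was lower. With a pseudocount of 0.1 in place of 1, the calls of SEP3, AG and CAL were lost and 3 remained. The median member lay 0.10 above its nearest tissue on the log2 scale, against a median of -0.97 over all tested genes. PISTILLATA (PI, AT5G20240, chr5:6828904-6831515), needed for petals and stamens, was at 282 and 275 TPM in flower, against 0.523 to 8.02 TPM (median 1.98) over the 14 columns of the other tissues. Both flower columns stood above all 14, and the difference from shoot was 4.96 ± 0.19 (SE, adjusted p = 2.4e-09 by limma with Benjamini-Hochberg adjustment). APETALA1 (AP1), which acts in floral meristems and sepals, was at 103 and 99.2 TPM in flower, against at most 5.08 TPM in another column. AP3, the partner of PI, behaved otherwise. It was at 146 TPM in both flower columns, against 93.7 and 96.3 TPM in silique and a median of 0.347 TPM over the 14 columns, and its difference from silique of 0.61 did not pass (adjusted p = 0.37 by limma).

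The MADS-box genes that act in all floral whorls or in the carpel differed in the same way. SEP3 was at 240 and 235 TPM in flower, against a mean of 139 TPM in silique, and passed (0.77 ± 0.17, adjusted p = 0.015 by limma). AGAMOUS (AG), which sets stamens and carpels, was at 32.5 and 29.6 TPM in flower and at 18.0 TPM in silique, and also passed. SEP2 was at 178 TPM in both flower columns, against 199 TPM in silique. SEP1 averaged below its silique mean of 175 TPM, with 82.6 and 77.5 TPM in flower. The carpel and ovule genes were far lower than in silique: SHP2 was at 23.0 and 22.8 TPM in flower and 137 TPM in silique, and STK was at 17.2 and 15.7 TPM in flower and 73.6 TPM in silique. SEP4 and AGL8 (FRUITFULL) were highest in stem, with means of 98.9 and 100 TPM there, against 27.4 and 25.7 TPM for SEP4 and 95.1 and 90.9 TPM for AGL8 in flower. CAL and AGL6 completed the 6 genes that passed, at 9.04 and 8.27 TPM and at 19.4 and 17.6 TPM in flower.

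Most tested genes of the tapetum and the pollen wall were higher in flower. Of 38 listed, 29 were tested, 26 were higher in flower than in each other tissue and none was lower, with a median difference of 4.03. The 9 members left out by the filter on low values were too low over the tissues to be tested. A gene absent elsewhere needs about 9 times the minimum mean of 1 TPM in flower to be tested at all, so the 26 of 29 describe only the members that passed the filter. The regulators AMS (6.73 and 5.53 TPM in flower, at most 0.584 TPM as a mean elsewhere) and MS1 (a mean of 1.22 TPM) were among those left out, as were CYP703A2 and CYP704B1, which make sporopollenin precursors. The glycine-rich oleosins of the pollen coat lie in a cluster on chromosome 5, from GRP14 (chr5:2377703-2378829) to GRP20 (chr5:2390207-2391439). GRP19 had 461 and 456 TPM in flower, against 0 to 2.42 TPM (median 0.219) in the other columns. Its difference of 7.16 ± 0.14 from silique was the largest of all genes called (adjusted p = 9.1e-11 by limma). GRP17 was at 369 and 383 TPM in flower and at most 8.19 TPM elsewhere, and GRP20 at 209 and 210 TPM, against at most 1.76 TPM. GRP14 kept more of its level in silique, with 174 and 180 TPM in flower and 19.3 TPM in silique. The anther genes ATA20 (273 and 277 TPM in flower, 1.45 to 6.23 TPM elsewhere) and ATA27 (110 and 109 TPM, at most 0.372 TPM elsewhere) and the pollen coat lipase EXL4 (170 and 162 TPM, against a median of 0.103 TPM elsewhere) stood as far apart. All 3 were separated from every other column. Of the tested members, 3 went the other way. The cysteine protease gene CEP1 was at 17.8 and 17.4 TPM in flower, against 280 TPM in silique. The polygalacturonase gene QRT2 was at 3.24 and 4.12 TPM in flower and 34.8 TPM in root. SWEET8, a sugar transporter gene, was at 11.3 and 12.4 TPM in flower and 13.9 TPM in silique.

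Genes of mature pollen and the pollen tube summed to more TPM in flower than those of the tapetum, at 5245 against 2517 TPM. Of 50 listed, 39 were tested, 31 were higher in flower than in each other tissue and none was lower, with a median difference of 3.38. As for the tapetum list, these counts describe only the members that passed the filter on low values. With no such filter 41 of the 50 passed. AGP23 (AT3G57690, chr3:21384146-21384605), which encodes an arabinogalactan peptide, was at 934 and 984 TPM in flower, against 0.224 to 82.1 TPM (median 9.17) in the other columns. The pectin methylesterase gene VGD1 was at 692 and 696 TPM in flower, against 0.190 to 48.4 TPM (median 6.72), and its neighbour VGDH1 at 337 and 331 TPM, against at most 22.2 TPM. VGD1 and VGDH1 are close copies on chromosome 2, and how reads were divided between them is not given. AGP40 (637 and 646 TPM in flower), AGP11 (545 and 571 TPM) and AGP6 (504 and 525 TPM) followed, with silique means of 54.0, 37.3 and 42.2 TPM. In each of these genes both flower columns lay above all 14 others and silique came next. The receptor-like genes ANX2, PRK2A and PRK4, the proton pump genes HA6 and HA8 and the peptide genes RALFL4 and RALFL19 passed as well.

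Of the tested pollen genes 8 did not pass: some were higher in another tissue, and others were highest in flower by a small margin. The sucrose transporter gene SUC1 was at 107 and 106 TPM in flower, against 371 TPM in root. ACT3, an actin gene, was at 63.8 and 64.0 TPM in flower and 62.6 TPM in root. BZIP34 (a mean of 10.9 TPM in flower) was highest in rosetta leaf at 32.5 TPM, and AtVEX1, known from the vegetative cell of pollen, was at 9.41 and 9.07 TPM in flower and 43.9 TPM in silique. AGL104, AGL65, AGL30 and AT2G41970 were under 10 TPM in flower. Of these, AGL30 (8.44 and 9.22 TPM in flower, at most 7.48 TPM elsewhere) and AT2G41970 (4.25 and 4.35 TPM, at most 3.59 TPM) were highest in flower. MYB101, a pollen tube regulator, passed with 26.9 and 25.4 TPM in flower and 13.6 TPM in seed (0.89 ± 0.17, adjusted p = 0.0063 by limma), but with median-ratio factors its difference was -0.20.

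**Figure D2:**
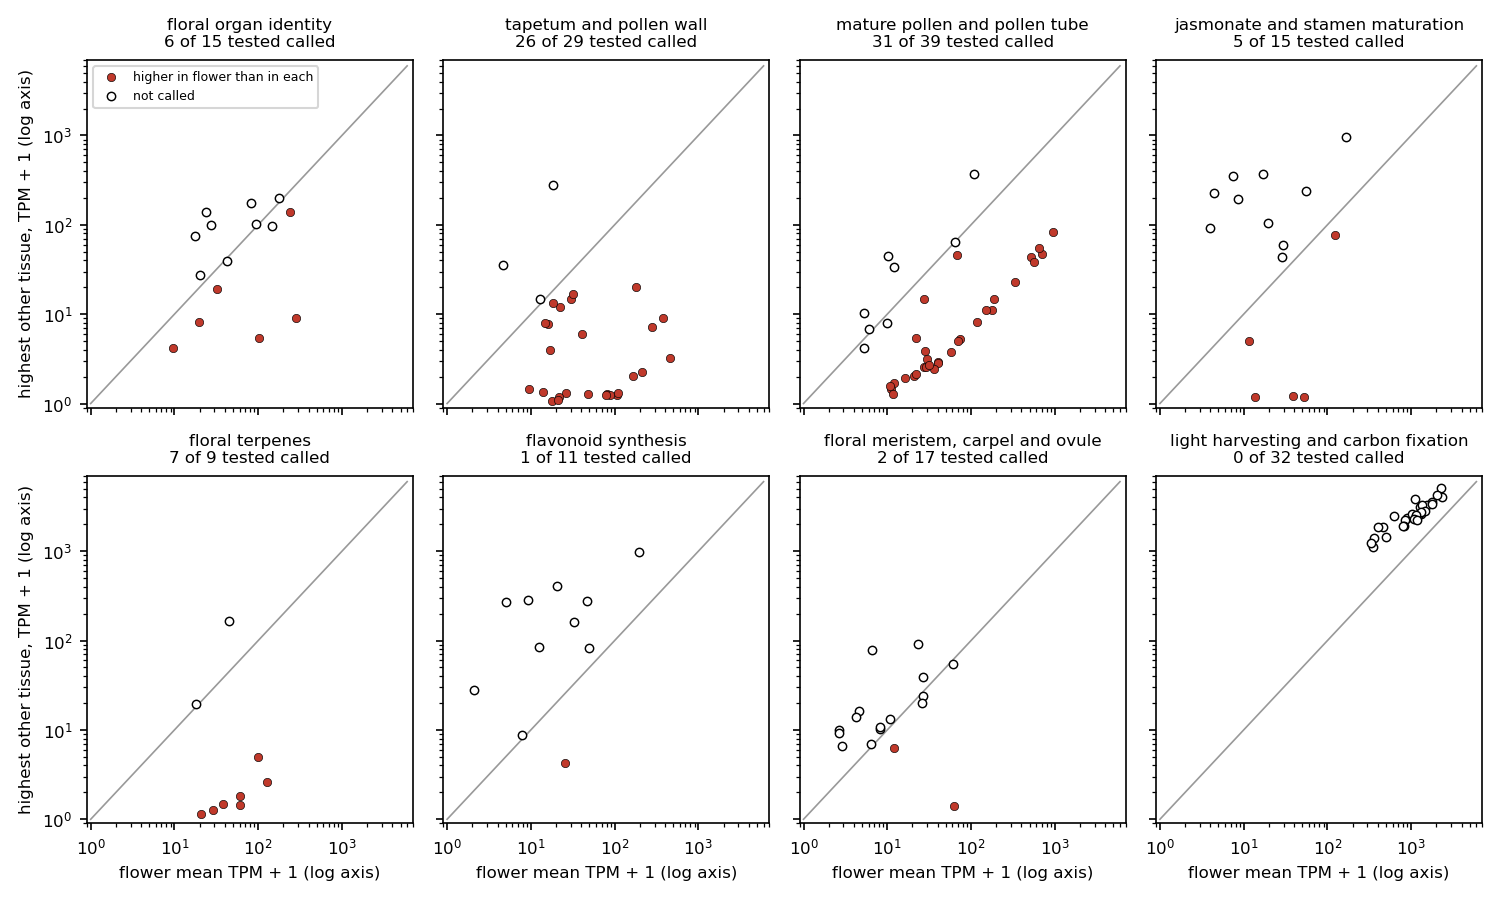
Mean flower level (horizontal) against the mean of the highest other tissue (vertical) for the tested genes of 8 lists, both as TPM + 1 on log axes, with the line of equality. Filled points are genes higher in flower than in each other tissue. The called genes of the pollen list lie along a band below the line, those of the tapetum and terpene lists are scattered far below it, and the 32 light harvesting genes all lie above it.

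Between the quartiles, the pollen genes that passed held much the same share of their flower level in silique, stem and cauline leaf. The full ranges were wider, at 0.585% to 66.3% in silique, 1.05% to 35.0% in stem and 0.330% to 17.2% in cauline leaf. Over the 31 genes the silique level was 5.89% of the flower level in the median, with quartiles of 5.17% and 6.73%, and silique was the highest other tissue for 26 of them. The medians were 2.36% in seed, 2.23% in stem (quartiles 1.75% and 2.61%), 1.74% in cauline leaf (quartiles 1.52% and 2.19%) and 0.887% in shoot, and they were 0.354% in root, 0.281% in rosetta leaf and 0.221% in seedling. The tapetum genes that passed did not share such a proportion: over 26 genes the silique median was 0.717% with quartiles of 0.186% and 11.9%. The 6 genes of floral organ identity had a silique median of 25.0% (quartiles 6.21% and 53.0%), and the 7 terpene genes had medians under 0.3% in every tissue. The genes were chosen for being highest in flower, so these shares are a description. Whether whole flowers or pollen were present in the silique, stem, cauline leaf and seed samples was not tested.

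**Figure D3:**
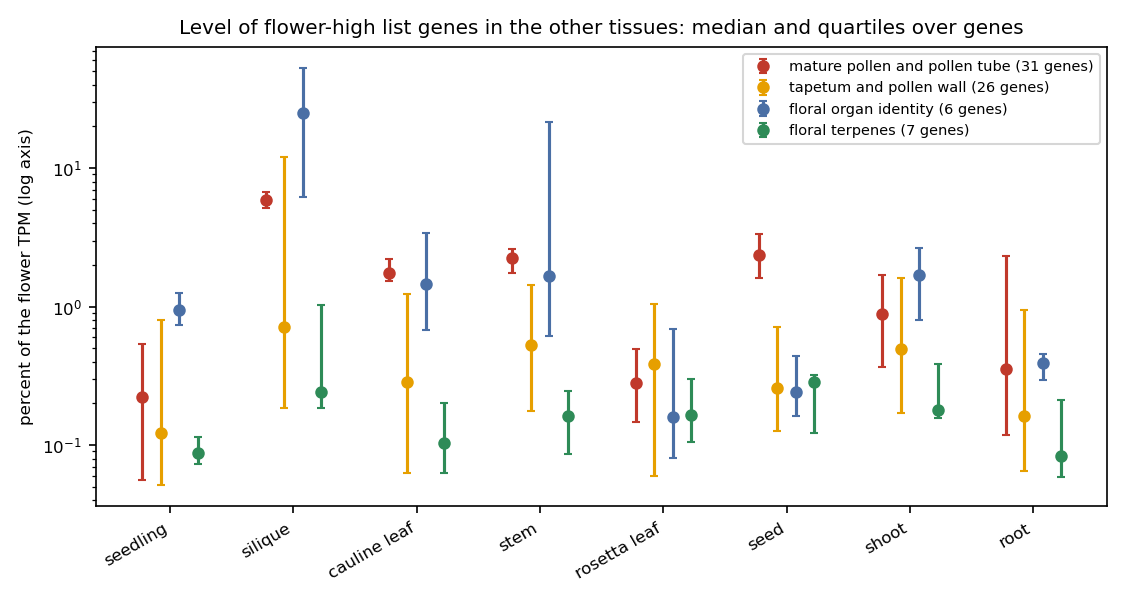
Mean TPM in each other tissue as a percent of the mean flower TPM (log axis), with points for the median and bars for the quartiles over the genes called as higher in flower in 4 lists. The pollen genes have short bars in silique, stem, cauline leaf and seed, with a silique median of 5.89%, whereas the tapetum genes spread widely around a silique median of 0.717%.

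Families with the same annotated product were then counted. These families were chosen after their values were seen, so the counts are a description beside the 5.45% over all genes. They cover tested members only, and a gene absent elsewhere was tested only if its flower level was high. The shares are therefore not strictly comparable with that over all genes. All 8 tested genes for proteins with a DUF1216 domain passed as higher in flower, and they include a run on chromosome 3 from AT3G28780 (chr3:10805857-10808461) to AT3G28840. AT3G28830 was the most abundant, with 491 and 492 TPM in flower, against at most 33.1 TPM elsewhere. RALF-like peptides, small secreted signals, passed in 10 of 18 cases, led by RALFL8 with 853 and 864 TPM in flower and at most 63.0 TPM elsewhere, and RALFL9 with 646 and 636 TPM in flower and at most 47.5 TPM elsewhere. The self-incompatibility S1 family passed in 10 of 18 cases, at lower levels. Genes of pectin lyase-like proteins, which act on the cell wall, passed in 20 of 62 cases, with AT3G07850 at 644 and 638 TPM in flower, against at most 51.0 TPM elsewhere. Plant invertase or pectin methylesterase inhibitor proteins passed in 25 of 79 cases, GDSL-like lipases in 13 of 68 and lipid-transfer proteins in 12 of 84. In the last 3 families and in the pectin lyase-like family the median member was nevertheless lower in flower than in its highest other tissue, with medians of -1.89, -1.04, -3.89 and -0.88. Silique was the next highest tissue for the genes given with values here.

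SQUAMOSA PROMOTER BINDING PROTEIN-LIKE (SPL) genes, which promote the change to the adult and flowering phases, passed in 6 of 17 cases. SPL3 was at 306 and 301 TPM in flower, against 0.278 to 54.7 TPM (median 21.5) elsewhere, with stem the next highest tissue. Its difference of 2.46 ± 0.11 passed (adjusted p = 9.5e-09 by limma). SPL9 was at 60.4 and 58.7 TPM in flower, against at most 4.63 TPM elsewhere, and SPL8, which acts in anthers, was at 30.0 and 28.4 TPM in flower, against at most 4.66 TPM. Each of these 3 genes had both flower columns above all others. SPL10 and SPL11 passed with smaller differences of 1.20 and 0.85, and SPL5 with 0.56.

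Of 26 listed genes of the floral meristem, carpel and ovule, 17 were tested and 2 (11.8%) passed as higher in flower than in each other tissue, beside 5.45% of all genes. With no filter on low values 6 of the 26 passed. CRABS CLAW (CRC, AT1G69180), which patterns carpels and is needed for nectaries, was at 64.4 and 59.6 TPM in flower, against 0.0603 to 0.391 TPM (median 0.158) elsewhere, a difference of 5.50 ± 0.14 (adjusted p = 2.4e-10 by limma). INNER NO OUTER (INO), of the outer integument, was at 11.1 and 10.7 TPM in flower and 5.24 TPM in silique. The fruit opening gene ALC was at 59.8 TPM in both flower columns and 53.9 TPM in silique, and ANT, a growth regulator, at 22.6 TPM in both flower columns and 91.1 TPM in root. Meristem genes such as LFY (2.18 and 2.82 TPM in flower) and WUS (6.18 and 6.85 TPM) were too low over the tissues to be tested. Of 23 meiosis genes, 8 were tested and none passed. The recombinase gene DMC1 was at 7.65 and 7.80 TPM in flower, against 14.4 TPM in silique, and 14 of the 15 untested members were under 2 TPM in both flower columns. Of 10 sperm cell genes, 2 were tested. MGH3, a histone gene of sperm, was at 8.28 and 11.4 TPM in flower, against at most 0.284 TPM elsewhere, and passed, while GEX1 was at 2.12 and 1.93 TPM in flower and 44.4 TPM in seed.

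Late flower functions separated by gene. Jasmonate, a lipid hormone, drives the last steps of stamen growth. Beside 5.45% of all genes, 5 of 15 tested genes (33.3%) of its synthesis and of stamen maturation passed. They comprised the MYB regulators of stamen maturation MYB21 (52.4 and 50.4 TPM in flower, at most 0.278 TPM elsewhere), MYB24 (37.3 and 38.0 TPM, at most 0.273 TPM) and MYB57 (a mean of 12.5 TPM, at most 0.272 TPM), together with MYB108 and the allene oxide cyclase gene AOC4. Both flower columns of the first 3 exceeded all 14 others by more than an order of magnitude. AOC4 was at 120 and 121 TPM in flower, against 75.2 TPM in root. The other synthesis genes were higher elsewhere: AOS, for allene oxide synthase, was at 16.5 and 15.1 TPM in flower, against 367 TPM in root. AOC2 was at 3.57 and 3.36 TPM in flower and 228 TPM in cauline leaf, and LOX2, for a lipoxygenase, was at 169 and 167 TPM in flower and 970 TPM in cauline leaf.

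The floral terpene genes passed in 7 of 9 cases (77.8%), beside 5.45% of all genes. TPS14 (AT1G61680, chr1:22772315-22774720), a linalool synthase gene, was at 126 and 129 TPM in flower, against 0 to 1.77 TPM (median 0.192) elsewhere, a difference of 5.63 ± 0.11 from silique (adjusted p = 9.1e-11 by limma). TPS10, also of linalool synthesis, was at 97.9 and 100 TPM in flower, against at most 4.08 TPM, and CYP76C3, which oxidises linalool, at 60.8 and 59.1 TPM, against at most 0.589 TPM. TPS21, for a caryophyllene synthase, was at 19.9 and 20.0 TPM in flower, against at most 0.184 TPM. The exceptions were CYP76C1, at 43.7 and 44.9 TPM in flower and 162 TPM in seed, and TPS03, at 17.7 and 16.4 TPM in flower and 18.7 TPM in cauline leaf. Of the 4 nectary genes, the sugar exporter gene SWEET9 was at 80.8 and 77.8 TPM in flower, against 0 to 0.696 TPM, and the cell wall invertase gene cwINV4 at 39.2 and 38.3 TPM, against at most 3.96 TPM, and both passed. JMT, for jasmonate methyltransferase, was at 15.7 and 16.1 TPM in flower and 151 TPM in silique. Of 11 tested genes of flavonoid synthesis 1 (9.09%) passed, beside 5.45% of all genes. It was the flavonol regulator MYB111 (24.5 and 24.8 TPM in flower, 3.28 TPM in silique). Of the 11 genes, 9 were lower in flower than in silique, beside 31.1% of all genes. TT4, for chalcone synthase, was at 195 and 197 TPM in flower and 975 TPM in silique, and DFR, for dihydroflavonol reductase, at 4.53 and 3.63 TPM in flower and 270 TPM in silique. UGT78D2, a flavonoid glucosyltransferase gene, was highest in seed, at 83.8 TPM.

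The 12 genes furthest above their nearest tissue included GRP19, GRP20, ATA27, EXL4, GRP16, the tapetum lipid-transfer gene LTP12 and the tapetum methyltransferase gene TSM1. AT2G20870 (chr2:8981927-8982712), annotated as a cell wall protein precursor, was the most abundant, at 1239 and 1284 TPM in flower, against 0 to 8.84 TPM (median 2.02) elsewhere (7.06 ± 0.13, adjusted p = 9.1e-11 by limma). AT5G22430, annotated as a Pollen Ole e 1 allergen and extensin family protein, was at 762 and 771 TPM in flower and at most 5.10 TPM elsewhere (7.00 ± 0.18). AT1G66850, of the lipid-transfer superfamily, was at 441 and 426 TPM in flower and at most 4.71 TPM elsewhere. AT1G68875, which has no described function in the reference, was at 160 and 164 TPM in flower and at most 0.681 TPM elsewhere, and AT1G30795, of a glycine-rich family, at 95.6 and 101 TPM and at most 0.565 TPM.

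Of the genes lower in flower than in each other tissue, the 8 furthest below encode enzymes and proteins of unrelated families. GolS2 (AT1G56600, chr1:21207537-21209635), which encodes galactinol synthase of the raffinose pathway, was at 0.905 and 0.937 TPM in flower, against 8.40 TPM in a root column to 1059 TPM in seed (median 37.3). It lay 2.51 ± 0.15 below root on the log2 scale (adjusted p = 3.0e-06 by limma). AT5G05250, of no described function, was at 1.20 and 0.960 TPM in flower, against 8.30 to 126 TPM elsewhere, and AT2G46690, of the SAUR-like auxin-responsive family, at 8.11 and 9.11 TPM, against 34.8 to 164 TPM. AT3G23570, of the alpha/beta-hydrolases, was at 13.7 and 11.9 TPM in flower and 43.7 to 158 TPM elsewhere. AT5G17000, of the zinc-binding dehydrogenases, was at 5.61 and 4.85 TPM in flower, against 16.6 to 50.7 TPM. AT1G78070, of the WD40 repeat proteins, was at 6.49 and 6.25 TPM in flower, against 20.6 to 216 TPM. The glycosyltransferase gene UGT72B3 (0.638 and 0.929 TPM in flower, 4.05 to 16.3 TPM elsewhere) and the methionine sulfoxide reductase gene MSRB4 (0.358 and 0.899 TPM, 3.49 to 40.9 TPM elsewhere) completed the 8.

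Against single tissues a large part of the genes differed. The genes higher in flower made up 41.6% against seedling, 40.2% against silique, 47.3% against cauline leaf, 46.5% against stem, 56.4% against rosetta leaf, 62.9% against seed, 33.7% against shoot and 37.7% against root. The genes lower in flower made up 35.6% against seedling, 31.1% against silique, 34.2% against cauline leaf, 31.9% against stem, 21.6% against rosetta leaf, 22.9% against seed, 40.5% against shoot and 43.4% against root. The 8 comparisons share the flower columns and are not independent. These splits depended on the scale, since the median difference over all genes was 0.45 against rosetta leaf, 0.90 against seed, 0.17 against cauline leaf and stem, and within 0.09 of 0 against the others. Of the genes called, 72.3% were higher against rosetta leaf, 73.3% against seed, 58.1% against cauline leaf and 59.3% against stem. After quantile normalization the same shares were 45.3%, 46.9%, 44.8% and 45.2%, and with median-ratio factors 51.2%, 52.7%, 49.5% and 50.3%.

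Genes of light harvesting and carbon fixation placed the flower between the green and the non-green tissues. The 32 listed genes summed to 36775 TPM in flower, against 85072 TPM in rosetta leaf, 63346 TPM in seedling, 56536 TPM in cauline leaf, 53863 TPM in stem, 44269 TPM in shoot, 37580 TPM in silique, 1254 TPM in seed and 1217 TPM in root. All 32 were lower in flower than in rosetta leaf and in seedling, 26 than in stem, 24 than in cauline leaf, 19 than in shoot and 6 than in silique. Over all genes the lower shares were 21.6%, 35.6%, 31.9%, 34.2%, 40.5% and 31.1% in the same order. All 32 were higher than in seed and in root, beside 62.9% and 37.7% of all genes. Under quantile normalization the lower counts were 20 against rosetta leaf and seedling, 15 against stem, 12 against cauline leaf and 14 against shoot, and 16 were then higher than in silique. With median-ratio factors all 32 remained lower than in rosetta leaf and seedling, and 11 than in shoot. LHCB3, a light-harvesting antenna gene, was at 1264 and 1308 TPM in flower, against 3139 TPM in rosetta leaf, 35.6 TPM in seed and 31.5 TPM in root. The CAB1, CAB2, CAB3, LHB1B1 and LHB1B2 genes and the RBCS genes are near-identical copies within their families, and their levels depend on how shared reads were divided. In the secondary cell wall set, IRX3, for a cellulose synthase, was at 9.26 and 8.97 TPM in flower and 488 TPM in stem.

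Of the 19 genes annotated as Ψ synthase family proteins, 18 were tested. None was higher or lower in flower than in each other tissue, beside 5.45% higher and 0.474% lower over all genes. Against single tissues, in the order seedling, silique, cauline leaf, stem, rosetta leaf, seed, shoot and root, 6, 12, 8, 10, 9, 11, 1 and 6 were higher in flower and 4, 1, 5, 3, 3, 1, 8 and 7 were lower, to be read beside the shares over all genes given above. SVR1, which acts on chloroplast rRNA, was at 35.2 and 34.0 TPM in flower, against 10.5 TPM in a root column to 59.1 TPM in seed, so flower lay inside the range of the other tissues.

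For Ψ, the authors combined the libraries of each tissue and gave 1 fraction per site and tissue, the calibrated share of RNA with Ψ, with a mark for sites kept by their filter in that tissue. Such sites are termed called. With 1 combined value per tissue no error between libraries can be had and no test was made. The intervals below are 95% Wilson intervals and cover the counting of sites only. In flower 2505 sites were called, against 1546 sites in seed to 2712 in root. Of the flower sites 2363 had a single host gene, and these lay in 1954 genes. The median fraction of the 2505 sites was 0.174 (quartiles 0.106 and 0.315), and the medians of the other tissues ranged over 0.149 to 0.198. In flower 374 sites (14.9%) reached a fraction of 0.5 or more and 570 were under 0.1. Of the called flower sites 9 had a fraction of 0, as had 3 in seed and in shoot to 18 in root. Of the called sites 2185 lay in protein-coding genes, and of those in exons 86.4% were in coding sequence, 9.84% in 3′ untranslated regions and 3.75% in 5′ untranslated regions. The base triplet around the modified U (written T) was most often CTC, at 617 sites (24.6%), against 17.7% to 26.8% in the other tissues. TTG followed at 17.4%, against 13.1% to 17.0%, and TTC at 13.0%.

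In flower and in no other tissue, 705 sites were called, which is 28.1% of its calls (26.4% to 29.9%), against 19.6% in cauline leaf to 46.0% in seed for the same share elsewhere. Of the other flower sites, 352 were called in 1 more tissue and 122 in all 9. A call in flower only did not mean that Ψ was absent elsewhere. Just 58 of the 705 (8.23%) had no fraction above 0 in any other tissue, and 334 (47.4%) had a higher fraction in at least 1 other tissue without being called there. The depth behind the calls is unknown.

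The flower sites called in no other tissue with the widest gap to the highest other fraction are shown with their surroundings in TAIR10 coordinates, 5′ to 3′ on the strand of the transcript, with the called T and its neighbours in capitals. They are shown because they have the widest gaps of all. A mitochondrial position that could not be placed on the reference also ranked among them, with 0.928 in flower.
U4.6, chr1:4006938-4006958, minus strand: ttgaaaactATTtccaaaccc
PI, chr5:6830965-6830985, plus strand: ccagctggtATAcatataatg
AT1G09730, chr1:3151501-3151521, minus strand: ttgtttattGTAgggatgacg
U4.5, chr5:8972549-8972569, minus strand: ggcgcgtctATTgctggttga
AGL104, chr1:7814193-7814213, minus strand: atcgacaagTTAcgttttcaa
U4.6 and U4.5 are genes of U4 small nuclear RNA, a part of the spliceosome. The site in U4.6 had a fraction of 0.994 in flower and 0 in each of the 8 other tissues, and that in U4.5 had 0.880 in flower and 0 in 7 tissues, with no value in seed. Windows of 31 bases around them occur 7 and 8 times in the genome, so the copy that was read is uncertain. The site in PI, in an intron, had 0.987 in flower and 0 in silique, shoot and root, with no value in the others, where PI was at most 2.96 TPM. The site in AT1G09730, a gene of the cysteine proteinases, is also intronic and lies 2 bases from the terminal base of an intron. It had 0.975 in flower and 0 in 7 tissues, and its host was at 21.4 TPM in flower and 16.2 to 28.6 TPM elsewhere. The site in AGL104 had 0.802 in flower, but 0 in seed and no value in the other tissues.

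Among hosts with at least 5 TPM in each tissue, 352 of the 705 sites remained. The 4 with the widest gap were the intronic AT1G09730 site and the following positions. These are shown because their hosts were expressed in every tissue.
AP4.3A, chr2:13916961-13916981, plus strand: gcggagcttGTTgcggtggct
RPS15AD, chr3:16915255-16915275, plus strand: tccagacagGTTagtctagag
SPP, chr5:16949897-16949917, plus strand: cggctcattGTTggtggtgga
The coding site in AP4.3A, a protein kinase gene, had a fraction of 0.623 in flower and 0 in all 8 other tissues, although the gene was lowest in flower (8.89 TPM, against 22.7 to 89.1 TPM). The coding site in SPP, for a peptidase of the M16 family, had 0.270 in flower and 0 in all 8. The site in RPS15AD, for a ribosomal protein, had 0.539 in flower and 0 in 7 tissues, and lies at the start of an intron.

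Several of these high fractions stood at intron ends, and this was counted over all sites. Of the flower-only sites in protein-coding genes, 81 of 651 (12.4%, interval 10.1% to 15.2%) were intronic, against 45 of 1534 (2.93%) of the flower sites also called elsewhere. In the other tissues the same share of sites called only there ranged over 4.22% to 17.0%. Of the 81 intronic sites, 59 (72.8%, interval 62.3% to 81.3%) lay within 3 bases of the terminal base of an intron. Outside introns this held for 8 of 570 flower-only sites. The crowding was not particular to flower: 389 of 619 intronic sites called in any tissue lay as close to an intron end. By tissue the share of called intronic sites was 51.1% in shoot to 67.9% in root, with 66.7% in flower. Among the 59 flower-only sites, 38 were 1 base from the terminal base. At all 38 the called T followed the triplet's G and formed the GT with which introns begin, as in the RPS15AD window above. The intronic flower-only sites had a median fraction of 0.696, against 0.159 for those outside introns, and they made up 61 of the 121 flower-only sites at 0.5 or above. Because BID-seq reads Ψ as a gap, a gap placed by alignment at a splice junction would also be read as a fraction. Whether this occurred at these positions was not tested.

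**Figure D4:**
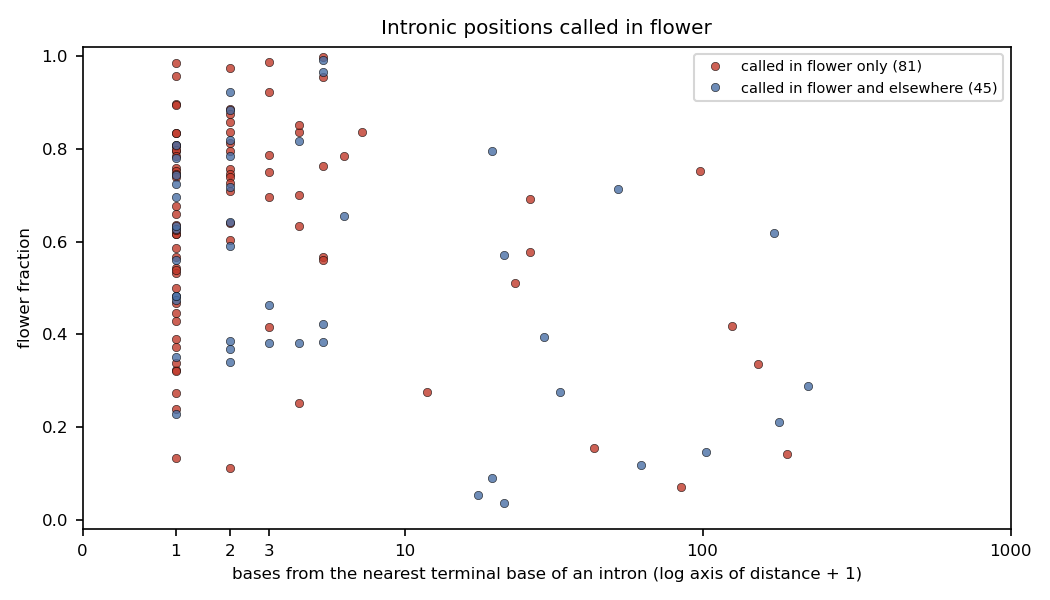
Flower fraction of the 126 intronic sites called in flower (vertical) against their distance in bases from the nearest terminal base of an intron (horizontal, log axis of distance + 1), in red for the 81 called in flower only and in blue for the 45 also called elsewhere. The points crowd at distances of 1 to 3 bases, where most fractions are above 0.3, and the 23 sites more than 10 bases inside have a median of 0.289.

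Sites called in flower only were more often in genes that were themselves highest in flower. Of the 682 flower-only sites with a single host, 162 (23.8%, interval 20.7% to 27.1%) lay in genes higher in flower than in each other tissue, against 74 of 1681 (4.40%, interval 3.52% to 5.49%) of the flower sites also called elsewhere. Seen from the hosts, the higher genes held 313 listed sites, of which 236 were called in flower and 162 of these (68.6%) in flower only. For hosts at least 2-fold above the nearest tissue, 124 of 144 called sites (86.1%) were flower-only, and for hosts at least 4-fold above it, 91 of 101 (90.1%). The share over all sites with a single host was 28.9%. The fractions themselves did not stand out: their median was 0.155 in the higher hosts, against 0.167 over all such sites. In the hosts at least 2-fold higher, 12.7% of the fractions in other tissues were missing and 51.5% were 0, against 2.40% and 18.6% over all such sites. The part of host level in the calls was not tested. Of the 236 sites, 40 were called in silique too, and flower had the higher fraction at 18 of them.

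A called flower site was present in 200 of the 1219 higher genes (16.4%) and in 8 of the 106 lower genes (7.55%), against 1940 of all 22381 tested genes (8.67%). The higher genes with a site had a median of 96.9 TPM in flower, and those without had 33.1 TPM. The highest fractions in hosts at least 2-fold higher in flower were that of PI, given above, and those of 2 chloroplast positions, of a tRNA and of PI4K GAMMA 1. The phosphoinositide kinase gene PI4K GAMMA 1 was at a mean of 59.1 TPM in flower and at most 3.39 TPM elsewhere, and its site (chr2:17052255-17052275, plus strand) is taaggttgcTTCcttgcagcg with the called T and its neighbours in capitals. It had a fraction of 0.897 in flower, while cauline leaf and seed had 0.952 without being called. The other positions were in ATCG00930 and ATCG01200 of the chloroplast genome, with fractions of 0.905 and 0.879 in the same window of 2 genome copies, and in the tRNA gene AT3G01705, with 0.900. High fractions at these 3 positions were also given elsewhere. With flower counted, ATCG00930 was called in 8 tissues and ATCG01200 in 7, and AT3G01705 had an uncalled fraction of 1 in seedling.

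Where a site was called in both flower and another tissue, the fractions were close. Flower had the higher fraction at 602 of 939 sites shared with shoot (64.1%, interval 61.0% to 67.1%), at 517 of 838 shared with rosetta leaf (61.7%, interval 58.4% to 64.9%), and at 57.2% of those shared with seedling and with stem. It had the higher fraction at 55.0% of sites shared with silique, 54.0% with root and 47.3% with cauline leaf. Against seed the order was turned, with flower higher at 180 of 499 sites (36.1%, interval 32.0% to 40.4%). The median differences were small, at 0.0124 against shoot, 0.00846 against rosetta leaf, 0.00408 against root and -0.0172 against seed. Against root the mean difference had the opposite sign, at -0.00376. Fractions differed by more than 0.2 at 1.60% to 3.51% of the shared sites for 7 tissues and at 10.0% against seed. No error can be set beside these shifts, since each tissue has 1 combined column. Over the 122 sites called in all 9 tissues the flower median was 0.295, against 0.255 to 0.321 in the others, and flower was highest at 18 and lowest at 11.

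**Figure D5:**
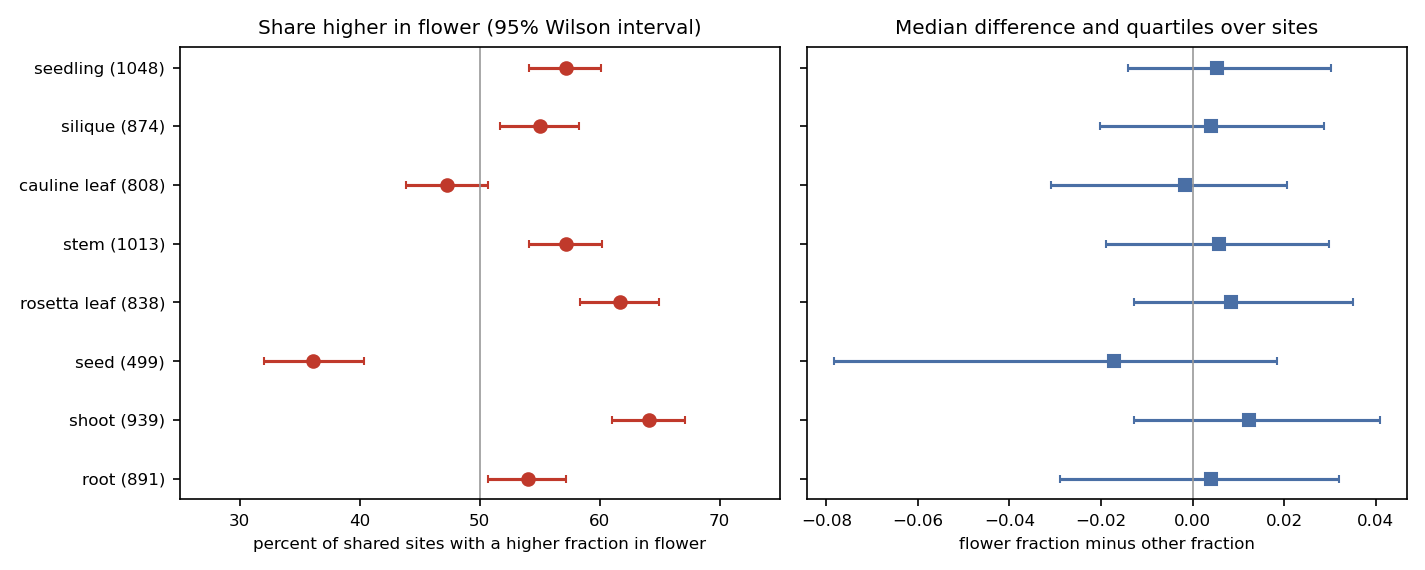
Left, percent of the sites called in both flower and another tissue at which the flower fraction was higher, with 95% Wilson intervals and a line at 50. Right, the median flower fraction minus the other fraction with quartiles over the same sites. The number of shared sites stands beside each tissue. Flower lies highest against shoot (64.1%) and lowest against seed (36.1%), and all quartile bars cross 0.

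Among sites called in at least 8 tissues, flower included, the widest gaps were mostly in non-coding RNAs and the chloroplast genome. Flower was furthest below the other tissues at an unannotated position in a repeated window (chr2:3393937-3393957, plus strand), with a fraction of 0.424 in flower, against 0.631 to 0.944. It was next below at ATCG00370 in the chloroplast genome, with 0.650 in flower and 0.817 to 0.987 elsewhere. In the 18S rRNA gene AT3G41768 the fraction was 0.663 in flower, against 0.632 to 0.912, and at ATCG00010 of the chloroplast it was 0.0972 in flower, against 0.155 to 0.501. Flower was furthest above the median of the others at the snoRNA gene AT3G50825 (0.842 in flower, 0.282 to 0.934 elsewhere) and at ATCG00670 of the chloroplast genome (0.611 in flower, 0.160 to 0.517 elsewhere). A mitochondrial position with 0.889 in flower also ranked there. The single nuclear mRNA among these was AT5G02530, for an RNA-binding protein, called in all 9 tissues, with 0.400 in flower, against 0.169 to 0.393. Its coding window (chr5:565643-565663, minus strand), tggttccggTTCtaattccgg, occurs once in the genome. Flower was highest of all 9 there and at ATCG00670.

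Sites in the listed flower genes were few and were chosen after their values were seen. The 5 called sites in genes of floral organ identity were all flower-only, as were 8 of 9 in pollen genes, the 3 in tapetum genes and the 2 in terpene genes. The flower-only share was 28.1% over all called flower sites and 90.1% in hosts at least 4-fold higher in flower. The windows of those with the highest fraction or the clearest host pattern are shown for comparison.
PI, chr5:6830728-6830748, plus strand: gaccaccagGTAtgtatacat
SHP1, chr3:21741333-21741353, plus strand: cagaagaggGTAagaacgttt
VGDH1, chr2:19325012-19325032, minus strand: gccgcggctATCcgagtgaac
STP11, chr5:7839208-7839228, plus strand: taacctgcaTTGtagctgcaa
AT4G39110, chr4:18223333-18223353, minus strand: tgacgagaaCTCtgagatgat
TPS14, chr1:22772825-22772845, minus strand: attctcaggCTCtgggatgat
ATA20, chr3:5201787-5201807, plus strand: gaaagctagATCtgaaccatg
The PI and SHP1 positions are the T of an intron's opening GT, with fractions of 0.446 and 0.799 in flower, and higher uncalled fractions of 1 stood in seed for PI and in stem for SHP1. The other windows are coding. In VGDH1 the fraction was 0.411 in flower, 0.763 in seed (uncalled) and 0 in the other tissues. In the sugar transporter gene STP11 it was 0.397 in flower and 0.431 in silique (uncalled), and in AT4G39110, a receptor-like kinase gene, it was 0.289 in flower and 0 in the 7 tissues with a value. TPS14 had 0.127 in flower and an uncalled 0.218 in silique. ATA20 had 0.0552 in flower and 0 in all 8 other tissues, at host levels of 275 TPM in flower and 1.49 to 6.23 TPM elsewhere. In VGD1 1 site had 0.0459 in flower and was also called in seed, at 0.190. ALC, of the carpel list, had 0.267 in flower and 0.326 in silique, and was called in both.

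The light harvesting and carbon fixation genes held 66 called flower sites in 27 genes. Of these sites 5 were flower-only, beside 28.1% of all called flower sites. Their median fraction was 0.0731, against 0.174 over all called flower sites, and 44 were under 0.1, beside 22.8% of all. At sites called in both tissues, flower had the higher fraction at 42 of 51 shared with rosetta leaf, 34 of 43 with shoot, 29 of 35 with silique, 35 of 55 with seedling, 30 of 46 with stem and 25 of 47 with cauline leaf, but at 1 of 6 with root, and it was lower at the 1 site shared with seed. Over all shared sites the shares higher in flower were 61.7%, 64.1%, 55.0%, 57.2%, 57.2%, 47.3%, 54.0% and 36.1%, in the same order of tissues. The median differences at the listed genes were small against the green tissues, from 0.000659 against cauline leaf to 0.0132 against silique. They were -0.0504 against root and -0.00946 against seed. The genes overlap in sequence, so their sites are not independent. One window shows this, since the same 21 bases lie in CAB3, CAB2 and CAB1 and in 1 more place of the genome.
CAB2, chr1:10475202-10475222, minus strand: tctctatgtTTGgattcttcg
LHCA3, chr1:22700207-22700227, plus strand: gacagatatTTGgctcaaaac
PSBO1, chr5:26568959-26568979, plus strand: tcttgccacCTCtgctctcgt
The first window had fractions of 0.163, 0.202 and 0.194 in flower for CAB3, CAB2 and CAB1, against 0.0170, 0.0304 and 0.0438 in rosetta leaf and 0.152, 0.163 and 0.220 in shoot. In LHCA3, of the photosystem I antenna, the fraction was 0.178 in flower and 0.0408 to 0.128 elsewhere. In PSBO1, of the oxygen-evolving complex, the site was called in all 9 tissues and hardly varied, with 0.205 in flower and 0.189 to 0.231 elsewhere. The CAB and LHCA3 windows carry the triplet TTG and that of PSBO1 carries CTC.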

How the data were processed

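The authors combined the BID-seq libraries of a tissue, mapped them to TAIR10 and deposited, per site, 1 calibrated Ψ fraction and 1 filter result per tissue. The filter's threshold is not given in the sources used here. RNA levels were deposited by the authors as TPM per gene, in 2 columns per tissue (1 for rosetta leaf and seed). The annotation, the strand setting and the libraries behind these columns are not given either. The filter kept genes with a mean of at least 1 TPM over the 9 tissue means. log2(TPM + 1) was fitted with limma 3.58.1 (trend, 1 coefficient per tissue, 16 columns, 7 residual degrees of freedom) in R 4.3.3, and tissues with 1 column are assumed to vary like the others. A gene was called against all tissues from the largest of its 8 p-values, Benjamini-Hochberg adjusted over all genes tested at 0.05.

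Sites and genes were placed with the RefSeq TAIR10.1 annotation. The stated triplet matched at each position of the nuclear and chloroplast genomes and at none of the 98 mitochondrial positions, which were not placed. Windows of 21 bases were read from that genome. Site comparisons are descriptions. The genes and sites named are the 12 genes furthest above and the 8 furthest below the nearest tissue, the 2 to 5 most abundant members of each list with those that went against it, and sites at the extremes of the flower gap. The members and gene lists were chosen with earlier results of these data known, and families by product words after their values were seen. Alternatives tried were a pseudocount of 0.1, other filters on low values, quantile and median-ratio scaling, a replicate block, no variance trend, a 2-fold minimum, leaving out each column, and other definitions of the site sets, of which those without intronic, repeated or mitochondrial positions were chosen after seeing the data. The fits were tested on simulated data. Python 3.11.15, pandas 2.3.3, NumPy 2.4.6, SciPy 1.17.1 and matplotlib 3.10.9 were used.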

Additional observations from a re-analysis of the deposited data

How the results depend on the processing

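The 1219 genes higher in flower than in each other tissue became 1868 with no filter on low values, 777 at a mean of at least 5 TPM and 747 with a 2-fold minimum. The 106 lower genes became 468 with quantile normalization, 418 with median-ratio factors and 22 with a 2-fold minimum. Leaving out 1 column at a time gave 1013 to 1402 higher and 72 to 436 lower genes (195 without rosetta leaf, 436 without seed, where that tissue drops out). Columns with the same replicate number showed little common deviation (correlations of -0.094 to 0.117 over 21 pairs of tissues, highest for root and shoot). The labels do not say whether equal numbers mean a shared origin, and such correlations cannot decide it. A fit with the replicate block gave 1208 higher and 100 lower genes.

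Against single tissues, the 2-fold minimum left 3485 higher and 3083 lower genes for seedling, 2570 and 2656 for silique, 5681 and 3048 for cauline leaf, 5026 and 2615 for stem, 6413 and 2199 for rosetta leaf, 2961 and 2715 for shoot, 4630 and 4729 for root, and 10713 and 2755 for seed. Quantile normalization gave 7616 higher and 9195 lower genes against rosetta leaf and 9096 higher and 10297 lower against seed, and median-ratio factors gave 8106 and 9222 lower genes against these 2 tissues. The cause of these shifts was not tested.

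Of the 198 named or listed genes that were called, 182 kept the call under each setting in which they were tested. The pseudocount of 0.1 ended 12 calls, median-ratio factors 6 and quantile normalization 4. MYB101 changed sign with median-ratio factors (-0.20). Counts of higher genes over all settings ranged over 3 to 6 for floral organ identity, 17 to 32 for the tapetum and 15 to 41 for pollen.

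The 705 sites called in flower and in no other tissue were 352 in hosts of at least 5 TPM in each tissue. Chosen after seeing the data, the count without intronic sites was 624, without repeated windows 667 and without mitochondrial positions 703. Sites in the highest hosts were 401 without a test and 101 at 4-fold. With fractions above 0 in both tissues, the median difference from silique was 0.00838, and flower was higher at 41.6% of sites against seed and 50.5% against root. In protein-coding genes it was higher at 67.3% against shoot. Mean differences were -0.00453 from cauline leaf, -0.0442 from seed and, with the sign turned, -0.00376 from root. Depth is unknown for both tables, so a fraction of 0 or a missing call does not show that Ψ was absent.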
